A study of Mus musculus with 6 samples.

Results

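The cytosolic ribosomal protein genes were the protein-coding genes of the ribosome itself, taken by name from a mouse expression array. Every non-control probe counted whose gene name was *Rpl* or *Rps* with a number (with or without the endings a, x or l), *Rplp0* to *Rplp2* or *Rpsa*, and the S6 kinase genes were left out. This gave 178 of the 55681 probes and 82 of the 35527 names on the array, of which 51 genes (112 probes) belong to the large subunit and 31 genes (66 probes) to the small subunit. The RNA came from 3T3 cells, an immortal line of mouse embryonic fibroblasts. Cells received 50 nM of GapmeR *Ntep*, an antisense oligonucleotide that recruits RNase H to the lncRNA *Ntep*, or 50 nM of GapmeR control, and were collected after 48 h. The dose is that of the labels, and the study's array sheet writes it differently. Each group had 3 arrays in 1 color, 1 array from each of 3 independent experiments.

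The ribosome is built from a large and a small subunit, each a core of ribosomal RNA held by ribosomal proteins that are needed in equal numbers. Their mRNAs are among the most abundant of a growing cell. Most begin with a run of pyrimidines at the 5' end, the terminal oligopyrimidine (TOP) tract, through which mTOR signalling controls their translation. In fibroblasts the demand for ribosomes follows growth. Free RPL5 and RPL11, bound to 5S ribosomal RNA, can hold the ubiquitin ligase MDM2 and so raise p53. Arrays measure mRNA, not ribosomes or translation, and the amount of RNA per cell was not measured, so that a change in cell mixture and a change per cell cannot be told apart.

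The first 30 bases of the 60-base probes are given here for *Rps15a*, *Rpl15* and *Rps24*, genes whose probes disagreed. They are written 5' to 3', with the mm9 position of the whole probe. Probes of other such genes are not printed. A signal reports only the stretch of transcript under its probe. The position in the listed transcript is given for each.
*Rps15a*, start at base 250, chr7:125253453-125253512: atttgatgttcaactcaaaggcctagagaa
*Rps15a*, start at base 320, chr7:125252644-125252703: attgtgctgacaacctaggctggcatcatg
*Rps15a*, start at base 4642, chr7:125248322-125248381: gtgagtcagcagaaagtatagatagcaaag
*Rpl15*, start at base 461, chr14:19101657-19101716: atcagaagaaatcctgacacccagtggatc
*Rpl15*, start at base 1530, chr14:19100588-19100647: gacatttcacaaaggccatacttaaccaca
*Rps24*, transcript variant 2, start at base 356, chr14:25311190-25312666: tggccattatgagaagaaaaagacctcccg
*Rps24*, transcript variant 1, start at base 444, chr14:25312695-25315015: aatgttggtgctggcaaaaagtgagtggag
*Rps24*, transcript variant 3, start at base 527, chr14:25315021-25315080: ttgatgttttgctgtgatgtgcagatttct
The *Rps15a* and *Rpl15* probes lie on the minus strand and those of *Rps24* on the plus strand. The probes of *Rps24* variants 1 and 2 cover more than 60 bases of the genome because each crosses an intron. The files name each as its gene's transcript and do not say which part is coding.

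The promoters were searched for the TOP tract as a feature that the choice of genes did not use. RefSeq starts (GRCm38.p6) were found for 61 of the 82 genes. A run of at least 8 pyrimidines (C or T on the strand of the gene) that touched the 15 bases on either side of the start was present in 31 of these 61 (50.8%), compared with 5416 of the 27025 genes of the table. The same run read on the other strand (A or G) was present in 5 (8.20%), compared with 21.9%. Of the large subunit genes 20 of 39 had a pyrimidine run, and of the small subunit genes 11 of 22. The windows of 30 bases around the start are given for genes of the results, with the pyrimidines of such runs in capitals.
*Rps15a*, chr7:118116133-118116162, minus strand: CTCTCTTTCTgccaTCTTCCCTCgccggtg
*Rpl15*, chr14:18270972-18271001, minus strand: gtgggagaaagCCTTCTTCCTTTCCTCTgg
*Rps24*, chr14:24490663-24490692, plus strand: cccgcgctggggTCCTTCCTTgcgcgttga
*Rps18*, chr17:33955651-33955680, minus strand: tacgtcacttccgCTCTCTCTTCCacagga
*Rplp0*, chr5:115559452-115559481, plus strand: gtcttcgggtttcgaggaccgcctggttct
A match is a description of these letters at the annotated start. A gene with several starts counted if any of them had a run. *Rplp0* had none in its window, nor had a second start of *Rps24*, which is not shown, and 21 genes had no entry.

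*Ntep* itself, listed as A630089N07Rik, was covered by 1 probe, which starts at base 2036 of the listed transcript, near its 3' end. With GapmeR *Ntep* it read 472, 91.5 and 226 in experiments 1 to 3, and with GapmeR control 271, 272 and 361 (log2 difference -0.48 ± 0.58 SE, limma, adjusted p = 0.632). The array labelled GapmeR *Ntep* replicate 1 thus had a higher *Ntep* signal than every GapmeR control array on this probe. The called probe, the subunit medians and the lowest genes of each subunit are also given without this array. The arrays had 43.7% to 53.3% of their probes well above background. Of the fibroblast markers, 9 of 12 were well above background on all arrays, with *Fap* on none and *Lum* on 1. Their summed signal was 555833 to 737685 with GapmeR *Ntep* and 808744 to 892159 with GapmeR control, and none of the 10 tested was called. The summed signal of the 6 macrophage markers was 33016.8 to 62712.8 with GapmeR *Ntep* and 15485.8 to 21197.1 with GapmeR control. These sums were mostly *Itgam* (log2 difference 1.26, not called) and *Cd68* (1.21, called). *Ptprc* and *Adgre1* were not above background on any array, and *Lyz2* (-0.18, not called) was well above it on only 3. The part of these markers in the results below was not tested. The 4 epithelial markers summed to 2726.91 to 5353.8 and 1767.24 to 3750.37, and the 3 endothelial markers to 708.3 to 785.6 and 538.7 to 614.5.

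Of the 82 genes, 79 were well above background on all 6 arrays by at least 1 probe. The other 3 were *Rpl3l* (the striated muscle form of *Rpl3*), *Rpl10l* and *Rpl39l* (forms best known from the testis), whose 4 probes stayed under the limit for testing. With the floor of 20 applied, *Rpl39l* was at 20 on every array, *Rpl10l* at 20 to 44.8 over its probes and arrays, and *Rpl3l* at 20 to 38.9. No member probe was saturated. The members filled 27 of the 100 brightest and 84 of the 500 brightest probes. Summed over the members before normalization between arrays, the signal was 6.58%, 6.08% and 6.64% of the total on the GapmeR *Ntep* arrays and 6.07%, 6.38% and 6.97% on the control arrays, so the groups overlapped.

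No ribosomal protein gene was called by its brightest probe in the main setting, an unpaired limma fit after quantile normalization. In limma, with p-values adjusted after Benjamini and Hochberg across the 30990 probes tested, 0 of the 79 genes had an adjusted p under 0.05 by that probe, where 5.30% of all tested probes were called. A fold change of at least 2 with an unadjusted p under 0.01 was also found for none, against 8.13% of all tested probes. At an unadjusted p under 0.05 there was 1 gene, *Rps24*, and the array groups did not overlap for 6 genes (7.59%), against 32.1% of all tested probes. Calls were also rare among other bright probes, so their rarity was not particular to ribosomal protein genes. Of 517 non-member probes at least as bright as the lower quartile of the members, limma called 1 after adjustment. None was found by fold and unadjusted p. In the same fit 10 of the 517 (1.93%) had an unadjusted p under 0.05, and the groups did not overlap for 67. When all 174 tested member probes were read, 1 was called by both rules, the dimmest probe of *Rps15a*, and 7 (4.02%) had an unadjusted p under 0.05, compared with 7761 of all 30990.

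The log2 differences of the 79 genes lay close together. Their median was -0.04 and their interquartile range 0.09, where all 22094 gene names gave a median of 0.06 and an interquartile range of 0.82. The difference was within 0.2 of zero for 75 of the 79 genes (94.9%), compared with 27.4% of all. The 95% interval lay inside a change of 1.5-fold in either direction for 65 genes and inside 2-fold for 78, the exception being *Rps24*. Other bright probes also lay close together: the 517 non-member probes at least as bright as the lower quartile of the members had an interquartile range of 0.12, and 455 of them (88.0%) lay within 0.2. Without normalization between arrays, the interquartile range was 0.08 for the 79 genes and 0.12 for these bright probes.

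**Figure D1:**
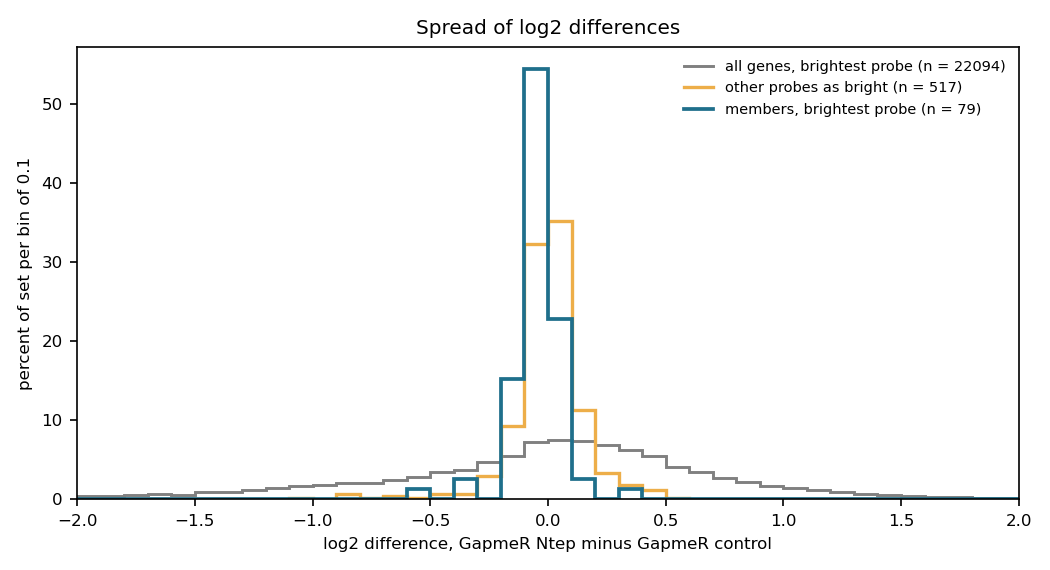
The histogram shows the log2 difference (GapmeR Ntep minus GapmeR control, bins of 0.1) as percent of each set, for 79 ribosomal protein genes, 22094 gene names and 517 other bright probes. Ribosomal protein genes and other bright probes both peak near 0, and the distribution of all genes is wider.

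Large and small subunit genes did not separate. The median log2 difference was -0.05 over 48 large subunit genes and -0.04 over 31 small subunit genes, so that large minus small was -0.01. Within experiments 1, 2 and 3 the large subunit median was 0.02, -0.07 and -0.04, the small subunit median was -0.02, -0.05 and -0.06, and large minus small was 0.03, -0.02 and 0.01. All tested probes had medians of 0.03, 0.05 and 0.03 in the same experiments. The direction of both subunits depended on the scaling: with each array scaled to its 75th percentile the medians became 0.18 (large) and 0.19 (small) while that of all tested probes became 0.22, and without normalization between arrays they were 0.03, 0.03 and 0.05. Relative to all tested probes, both subunits were lower by 0.11 and 0.10 under quantile normalization and by 0.04 and 0.03 under the 75th percentile. The 517 other bright probes had medians of 0.01 (quantile), 0.23 (75th percentile) and 0.07 (no normalization). In the same settings the 79 genes of both subunits had -0.04, 0.19 and 0.03. Without the array labelled GapmeR *Ntep* replicate 1, the medians were -0.02 (large) and -0.01 (small), which is -0.08 and -0.07 relative to all tested probes. These medians are descriptions without a test.

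**Figure D2:**
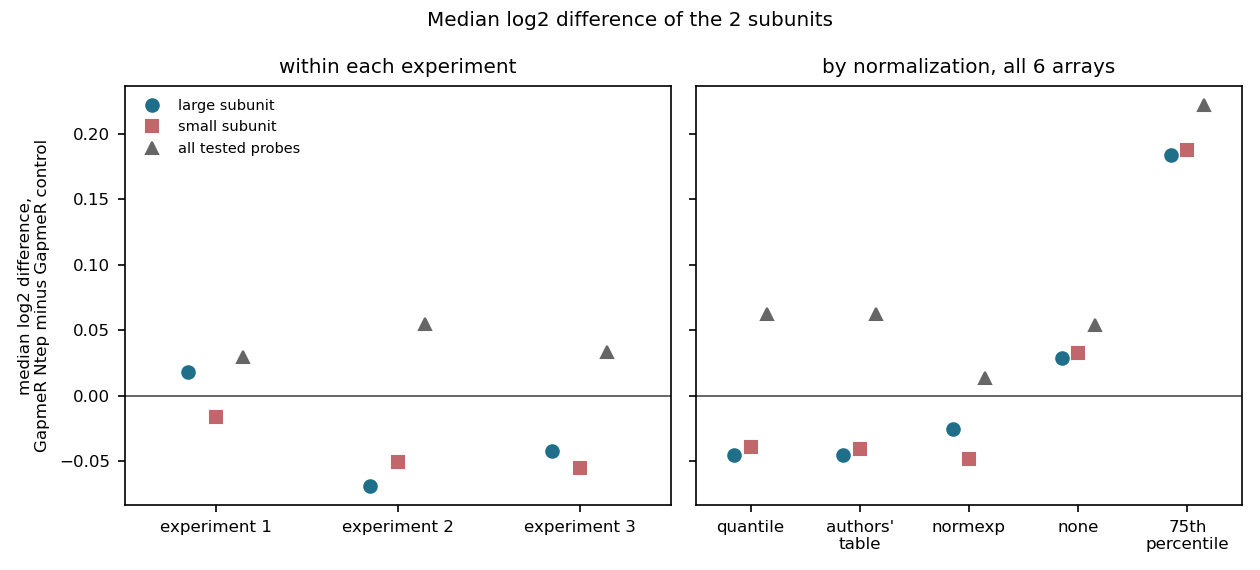
Median log2 differences (GapmeR Ntep minus GapmeR control) of large subunit genes, small subunit genes and all tested probes, within each experiment (left) and over all 6 arrays by normalization (right). Large and small subunit medians stay within 0.04 of each other in every column, while their sign changes with the scaling.

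Among large subunit genes, the lowest differences by the brightest probe were those of *Rpl5*, *Rpl13a*, *Rpl28*, *Rpl12* and *Rpl3*, and none passed a test. *Rpl5* had signals of 87185, 85325 and 98934 with GapmeR *Ntep* and 89105, 120941 and 130245 with GapmeR control. The groups overlapped through experiment 1, and the log2 difference was -0.31 ± 0.21 (SE, adjusted p = 0.399). *Rpl13a*, also a component of an interferon-responsive translational silencing complex and a usual reference gene for qPCR, had a difference of -0.31 ± 0.26 (adjusted p = 0.493). *Rpl28* was at -0.20, *Rpl12* at -0.19 and *Rpl3*, which lies near the peptidyl transferase centre, at -0.18. The highest were *Rpl7l1* (0.34 ± 0.23, adjusted p = 0.402), a homologue of *Rpl7* known from ribosome assembly, *Rpl4* (0.08), *Rpl7a* (0.08), *Rpl36a* (0.07) and *Rpl7* (0.06). Single arrays moved these values: without the array labelled GapmeR *Ntep* replicate 1, *Rpl13a* was at -0.10, *Rpl28* at -0.05, *Rpl3* at -0.06, *Rpl12* at -0.12 and *Rpl5* at -0.28. Over all single arrays left out, *Rpl5* ran from -0.48 to -0.20, and *Rpl4* (-0.02 to 0.22), *Rpl7a* (-0.10 to 0.28) and *Rpl36a* (-0.02 to 0.12) changed sign.

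Among small subunit genes, *Rps24*, *Rps9*, *Rps15* and *Rps28* were among the lowest. *Rps24*, which takes part in the maturation of 18S ribosomal RNA, is described with its variants below. *Rps9* had -0.18 ± 0.17 (adjusted p = 0.551), *Rps15* -0.16 and *Rps28* -0.12. The highest were *Rps3* (0.19 ± 0.16, adjusted p = 0.493), which lines the mRNA entry and has a known role in DNA repair, *Rps27a* (0.15), *Rps25* (0.09), *Rps21* (0.04) and *Rps20* (0.04). Without the array labelled GapmeR *Ntep* replicate 1, *Rps9* was at -0.04 and *Rps15* at -0.03. With single arrays left out, *Rps27a* (-0.04 to 0.24), *Rps21* (-0.09 to 0.30) and *Rps25* (-0.00 to 0.17) changed sign, and the 0.15 of *Rps27a* came with 397446 on the array of GapmeR *Ntep* replicate 3, where the other arrays had 264457 to 287338. Apart from *Rps24*, the differences of the small subunit genes by this probe ran from -0.18 to 0.19.

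**Figure D3:**
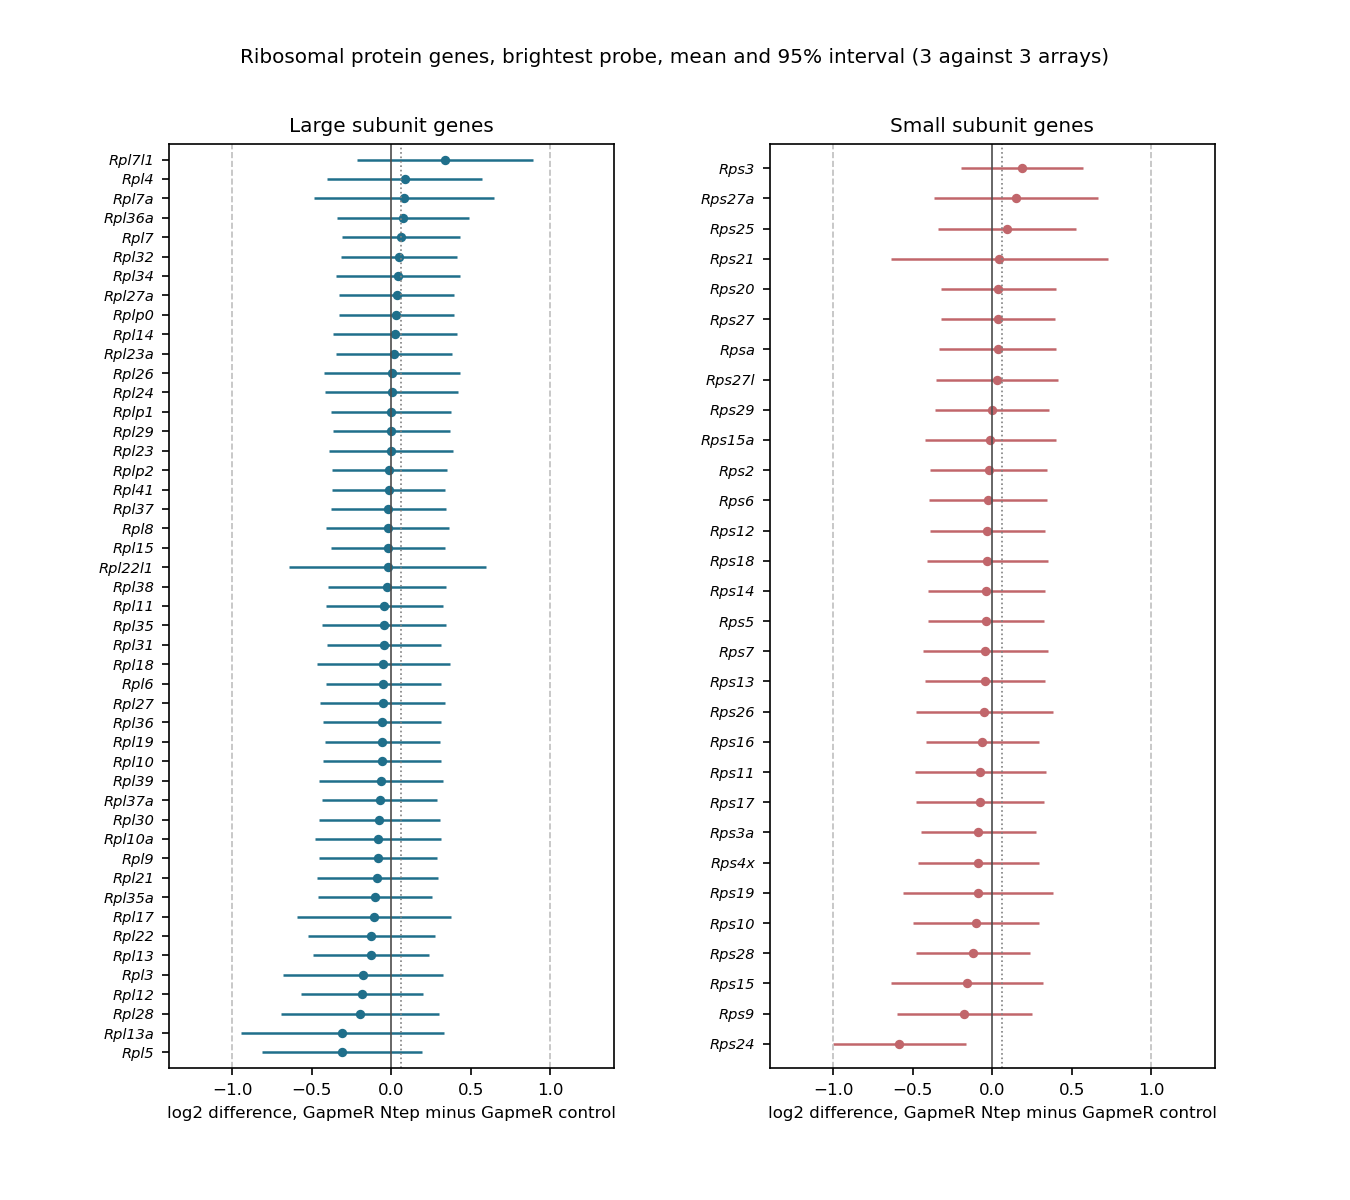
Log2 difference (GapmeR Ntep minus GapmeR control) and 95% interval for the brightest probe of large (left) and small (right) subunit genes, 3 against 3 arrays. The solid line marks 0, the dotted line the median of all tested probes (0.06) and the dashed lines 2-fold. Only the interval of Rps24 leaves out 0, and it also crosses the lower 2-fold line.

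The P-stalk, the flexible arm of the large subunit that recruits translation factors, showed 3 flat members. *Rplp0* had signals of 217630, 208051 and 224849 with GapmeR *Ntep* and 211115, 207775 and 218265 with GapmeR control, a log2 difference of 0.03 ± 0.15. *Rplp1* was at -0.00 ± 0.15 and *Rplp2* at -0.01 ± 0.15. Of the 5S particle, *Rpl11* had -0.04 ± 0.15 (95% interval -0.41 to 0.33) beside the -0.31 of *Rpl5*. Of the genes often used as qPCR references, *Rplp0*, *Rpl32* (0.05), *Rpl4*, *Rps18* (-0.03), *Rps6* (-0.03) and *Rpsa* (0.03) lay within 0.1, as did *Rpl13a* without the array labelled GapmeR *Ntep* replicate 1.

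Paralogues of ribosomal protein genes can replace their partner in the ribosome. *Rpl22l1* had 55050, 42317 and 70808 with GapmeR *Ntep* and 45660, 61660 and 61466 with GapmeR control (-0.02 ± 0.25), and its partner *Rpl22* was at -0.13 ± 0.16. *Rps27l*, a target of p53, had 124419, 120941 and 130070 with GapmeR *Ntep* and 112845, 123676 and 132172 with GapmeR control (0.03 ± 0.16, 95% interval -0.35 to 0.41), with *Rps27* at 0.03. The partners *Rpl10* (-0.06), *Rpl39* (-0.07), *Rpl7* and *Rps4x* (-0.09) did not pass either. *Rps4l*, which the array lists under an older name outside the rule, was not above background on any array. Genes whose product is a fusion with ubiquitin or a ubiquitin-like protein include *Rps27a* and, outside the rule, *Fau* (0.02). *Rpl36al*, also outside the rule, had 0.09.

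Probes of 1 gene disagreed in a few cases. Of 55 genes with several tested probes, the log2 differences lay less than 0.5 apart in 48 and at least 1 apart in 2, among them *Rps15a*. The other 5 (*Rpl15*, *Rps27a*, *Rps24*, *Rpl22* and *Rps3*) were named after their values had been seen.

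*Rps15a*, which encodes a small subunit protein, held the only probe called in the main setting. At base 4642 of the listed transcript, far beyond its other probes shown above, the signal was 844, 519 and 625 with GapmeR *Ntep* and 223, 202 and 259 with GapmeR control. All GapmeR *Ntep* arrays were above all control arrays, and the probe was well above background on every array. It rose 2.86-fold (log2 difference 1.52 ± 0.24 SE, 95% interval 0.94 to 2.09, limma adjusted p = 0.0314), by 1.92, 1.36 and 1.27 in experiments 1 to 3. The probe at base 250 had 222835, 220295 and 269627 with GapmeR *Ntep* and 223923, 251017 and 241780 with GapmeR control (-0.01 ± 0.17), and that at base 320 had -0.02 ± 0.20. Without the array labelled GapmeR *Ntep* replicate 1, the difference of the distal probe was 1.35 with an adjusted p of 0.0555 in limma. It was also not called without GapmeR control replicate 1 (1.502, adjusted p = 0.0695), 2 (1.42, adjusted p = 0.144) or 3 (1.61, adjusted p = 0.111), or without GapmeR *Ntep* replicate 3 (1.54, adjusted p = 0.112). Without GapmeR *Ntep* replicate 2 it was called (1.67, adjusted p = 0.0410).

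*Rpl15*, which encodes a large subunit protein, showed the lowest member probe, at base 1530. Its signals were 5390, 8171 and 7023 with GapmeR *Ntep* and 11523, 14845 and 13715 with GapmeR control. The groups did not overlap, with a log2 difference of -0.97 ± 0.22 (adjusted p = 0.0612). In a fit with the experiments as blocks the adjusted p was 0.0352. The probe at base 461 had 191210, 201939 and 202913 with GapmeR *Ntep* and 195030, 204443 and 205604 with GapmeR control, a difference of -0.02 ± 0.15.

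The 3 probes of *Rps24* are listed under different transcript variants, which differ by small exons at the 3' end. By the positions above, the variant 2 probe ends before the variant 1 probe begins, and the variant 3 probe begins just after it ends. Whether each probe reads only its listed variant was not tested. At the probe listed under variant 1 the signal was 95165, 119075 and 115466 with GapmeR *Ntep* and 154225, 172503 and 166341 with GapmeR control. The groups did not overlap, and the log2 difference was -0.59 ± 0.17 (limma adjusted p = 0.102, and 0.0633 with the experiments as blocks). Under 75th percentile scaling it was -0.36 (adjusted p = 0.267). This probe, the brightest of the gene, was called in limma with normexp background correction (adjusted p = 0.0431). It was also called with array weights (limma adjusted p = 0.0146), where 33.1% of all tested probes were called. At the probe listed under variant 3 the signal was 153754, 129323 and 140083 with GapmeR *Ntep* and 137134, 122894 and 128605 with GapmeR control, a difference of 0.12 ± 0.16. The variant 2 probe had 0.08 ± 0.32 with groups that overlapped. Whether the variants differ in response was not tested.

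**Figure D4:**
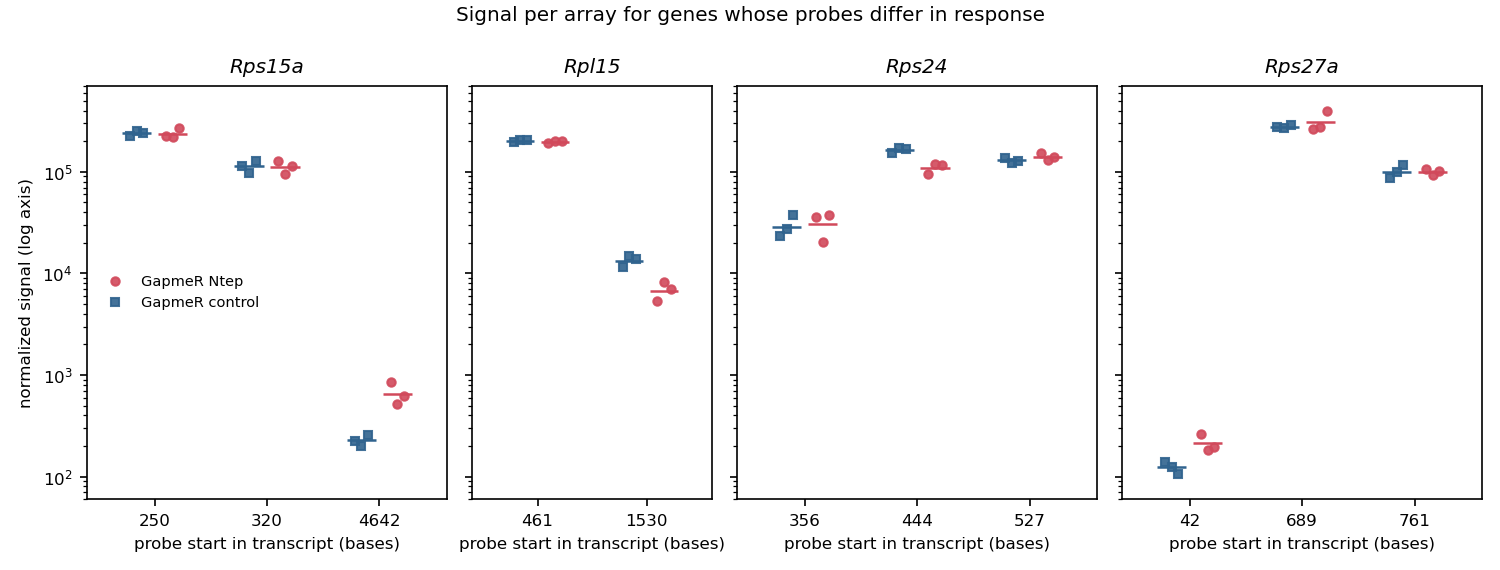
Normalized signal (log axis) on each array for every tested probe of Rps15a, Rpl15, Rps24 and Rps27a, placed by where the probe starts in its listed transcript in bases. Circles are GapmeR Ntep, squares GapmeR control and bars geometric means of 3 arrays. The groups separate at base 4642 of Rps15a, 1530 of Rpl15, 444 of Rps24 and 42 of Rps27a and lie together at the other probes.

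In *Rps27a* the probe at base 42, at the 5' end, had 264, 183 and 197 with GapmeR *Ntep* and 140, 125 and 107.1 with GapmeR control (0.78 ± 0.21, adjusted p = 0.0900, blocked adjusted p = 0.0492), while its probes at bases 689 and 761 had 0.15 and 0.01. *Rps3* had 18272, 14873 and 15116 against 7529, 10840 and 12058 at base 1795 (0.69 ± 0.23, adjusted p = 0.141), and 0.19 and 0.23 at its other probes. *Rpl22* had -0.77 ± 0.67 at base 1882, where arrays of 1 group spread widely, from 4737 to 13849 with GapmeR *Ntep*, and leaving out single arrays gave -1.43 to -0.32.

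Ordered by position, 14 of the 174 tested member probes started 1000 bases or more into their transcript. Of these, 9 (64.3%) lay within 0.5 of zero, compared with 158 of the 160 probes that started earlier and 56.9% of all tested probes. The groups did not overlap at 5 of the 14 (35.7%), near the 32.1% of all tested probes. The split was chosen after the values had been seen and was not tested. The probes of *Rps15a*, *Rpl15*, *Rps3* and *Rpl22* beyond base 1000 were also much dimmer than the brightest probe of their gene. The parts of position and brightness in this spread were not tested. The 7 probes of *Rplp0*, *Rpl3*, *Rpl4*, *Rps6* and *Rpsa* beyond this point had differences of -0.18 to 0.08. Of the other probes beyond it, *Rpl6* had -0.38 and *Rpl21* 0.39, both with groups that did not overlap and without passing a test.

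**Figure D5:**
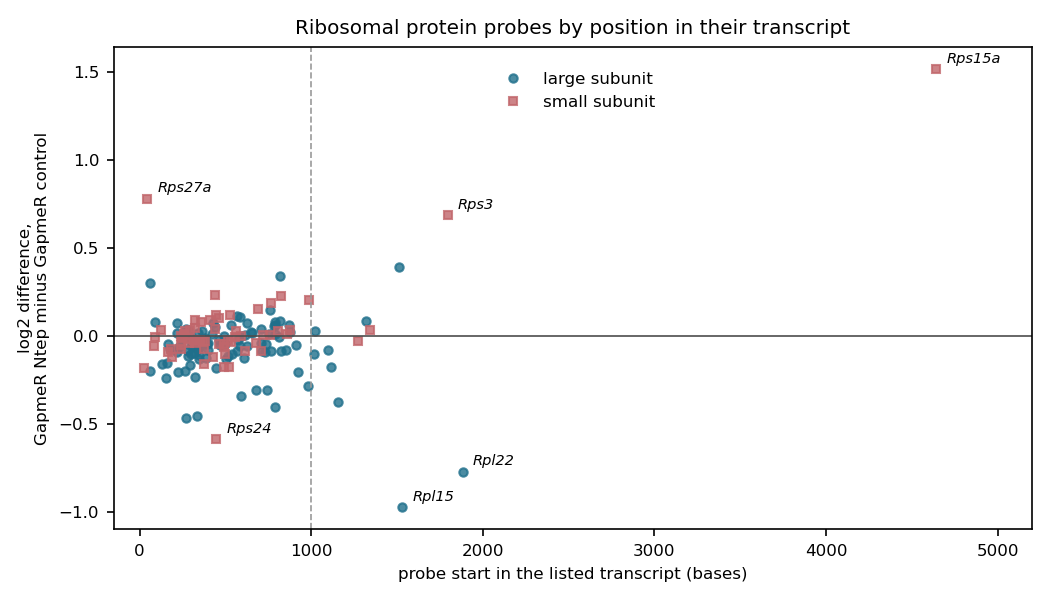
Log2 difference (GapmeR Ntep minus GapmeR control) of tested member probes against where the probe starts in its listed transcript (bases). The dashed line marks base 1000, and genes past 0.5 in either direction are named. Rps15a at base 4642 is the only probe called in the main setting.

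Ribosomal protein genes have many processed copies in the mouse genome, so a probe can also bind transcripts of a copy. For 13 probes of 7 genes (*Rpl12*, *Rpl13*, *Rpl31*, *Rpl36*, *Rps4x*, *Rps27* and *Rps29*) the files gave a position on another chromosome than that of the gene. Their values are uncertain for this reason. Among them the groups were apart at 2 probes, neither of which passed. The *Rpl13* probe listed on chromosome 4 had a log2 difference of -0.13, and the *Rpl36* probe listed on the X chromosome had 77895, 93221 and 91880 with GapmeR *Ntep* and 118495, 114200 and 129611 with GapmeR control (-0.46 ± 0.17, adjusted p = 0.154). Under 75th percentile scaling this was -0.23 (adjusted p = 0.460), and with array weights the adjusted p was 0.0389. The other 2 probes of *Rpl36* had -0.06 and -0.13.

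Other genes of ribosome production and translation were read from lists. Of 22 translation factors whose mRNAs carry a TOP tract, of 14 tested RNA polymerase I genes and of 21 mTOR pathway and TOP regulators, none was called by either rule, with median log2 differences of 0.00, 0.42 and 0.04. With the experiments as blocks 13.8% of all tested probes were called after adjustment. Of the tested probes of these lists, 0 of 42, 1 of 20 (5%) and 4 of 33 (12.1%) were called there. The RNA polymerase I gene was *Twistnb* (higher), and the others were *Mtor*, *Rps6kb1*, *Tia1* and *Tial1* (2 higher and 2 lower). The 75 mitochondrial ribosomal protein genes, which serve the separate ribosome of mitochondria, had a median of 0.04 and an interquartile range of 0.40, and 34 of them (45.3%) lay within 0.2. After adjustment 5 of their 98 tested probes were called (5.10%), near the 5.30% of all tested probes, and 4 genes rose and 1 fell: *Mrpl49* (1.15), *Mrpl9* (1.09), *Mrpl46* (0.97) and 1 dim probe of *Mrpl41* (not well above background on the control arrays, and -0.26 at the bright probe of the gene), against the second probe of *Mrpl15* (-1.76, with -1.02 at its brightest). That probe of *Mrpl15* had 4577, 9346 and 5472 with GapmeR *Ntep* and 23958, 20577 and 18572 with GapmeR control. Of 40 ribosome biogenesis factors (median 0.25), 3 rose and 3 fell after adjustment, with 6 of 54 tested probes called (11.1%, against 5.30% of all). With blocks 11 rose and 3 fell, with 15 of 54 tested probes called (27.8%, against 13.8% of all). Without single arrays at most 1 was called. *Grwd1*, a histone-binding factor of large subunit assembly (1.12 at its dimmer probe, and 0.99 at its brightest, which was not called), *Nop14*, of small subunit processing (0.98), and *Rrp1b* (0.89) rose. *Pes1*, of the PeBoW complex (-1.31), *Sbds*, which frees the large subunit from eIF6 (-1.10), and *Utp18* (20 to 23.6 with GapmeR *Ntep*, at or near the floor, and 65.4 to 125 with GapmeR control) fell. *Nop16* (1.31, adjusted p = 0.0778) passed the fold rule alone.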

How the data were processed

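Arrays from 3T3 cells were grouped by the labels' treatment. The authors scanned them with Feature Extraction 10.7.3.1 and deposited, per array, background-subtracted intensity without normalization between arrays, and a table of quantile-normalized intensity with a floor of 20, used as an alternative. Here, intensity was averaged over spots of a probe, quantile normalized, set to at least 20, put on the log2 scale and compared with limma 3.58.1 (R 4.3.3, lmFit and eBayes, unpaired, two-sided) for all probes whose brighter group had a mean of 50 or more. The study's methods used an unpaired test. A gene was read by its brightest probe over the 6 arrays, or by any probe for calls. Experiment numbers come from the study's supplementary array sheet. Residuals of arrays of the same experiment correlated at 0.466, 0.300 and 0.254, so the numbers pair the arrays, and a fit with experiments as blocks was run. An exact permutation of 3 against 3 cannot fall below 0.1. All arrays were on 1 slide and in 1 scan, so neither could be a batch. Precision is limited by 3 arrays per group.

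Named genes were members called by either rule, the 5 highest and 5 lowest per subunit by brightest probe, the P-stalk, 5S particle, paralogue, ubiquitin fusion and reference gene groups, genes whose probes lay 1 or more apart, and listed genes if called. Members, lists and rules were chosen with earlier results of these data known. Symbols were matched through RefSeq (GRCm38.p6). Positions of probes are those of mm9 in the files. The scripts were tested on simulated data. Results of a few genes are not reported here or drawn by gene, but count in the totals.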

Additional observations from a re-analysis of the deposited data

How the results depend on the processing

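The number of members called after adjustment, 1 in the main setting, was 0 without a filter on dim probes (*Rps15a* distal probe adjusted p = 0.0705) and 0 by the methods' t-test after adjustment (0.0734; 1 member at the methods' fold and p), 2 with normexp background correction, 2 when only probes well above background on all arrays were tested, 3 with a replicate block (*Rps15a*, *Rpl15* and *Rps27a*) and 6 with array weights, and 0 to 1 when single arrays were left out. The replicate block changed no other call among the members. *Rps24* was called by its brightest probe with normexp background correction and with array weights. In the mitochondrial ribosomal protein list the replicate block gave 7 genes higher and 1 lower. There 8 of 98 tested probes were called (8.16%), under the 13.8% of all tested probes. Without single arrays 0 to 3 genes of this list were called. At fold 2 and p 0.01 the count was 1 in every setting but 2 without normalization between arrays, an alternative chosen after seeing the data, and 1 to 2 with single arrays left out. The large subunit median was 0.184 under 75th percentile scaling and 0.029 without normalization, and -0.062 to -0.017 with single arrays left out. The small subunit median was 0.187 and 0.0324 in the same settings, -0.0637 with array weights, and -0.0786 to -0.0101 with single arrays left out. Large minus small was 0.0228 with normexp and -0.0122 to 0.036 with single arrays left out. Among the 49 named probes, a call was gained or lost in some setting only for *Rps15a*, *Rpl15*, *Rps24* and *Rps27a* (*Rpl36* and *Rpl39*, called with array weights, have further probes outside these). No slide or scan block was run, since all arrays share both. Over the whole array 1642 probes were called after adjustment, compared with 4292 with the replicate block, 10260 with array weights, 564 without the filter, 2487 when dim probes on any array were dropped, 962 without normalization between arrays, 285 by the methods' t-test and 0 to 1437 with single arrays left out. At fold 2 and p 0.01 it was 2520, compared with 4506 with array weights, 1457 by the methods' t-test and 1598 to 3164 with single arrays left out. The 3 arrays per group and the signal over background limit what could be called, and the causes of these differences were not tested.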
